A study of Homo sapiens with 4 samples.

Results

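The genes examined here encode the machinery that silences heterochromatin in human cells, and the question is how accessible their own promoters were and whether that changed when MORC2 was overexpressed. The set comprised 40 genes, chosen by name from their known roles: the MORC family, the HUSH complex, SETDB1 and its partners, methyltransferases of histone H3 lysine 9 and histone H4 lysine 20, HP1 proteins and other readers, DNA methyltransferases and their partners, and PAK1. All 40 were found by Entrez identifier among the 28775 promoters of the count table, and 39 of them passed the filter on low counts. MORC1 was the gene left out by that filter.

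Chromatin accessibility was measured by ATAC-seq, in which the Tn5 transposase cuts and tags open DNA, in HEK293T, an established human embryonic kidney line with an intact MORC2 gene. Control libraries (n = 2) came from cells that were given lipofectamine, a transfection reagent. MORC2 overexpression libraries (n = 2) came from the same line transfected with MORC2, and the methods name a plasmid for wild-type MORC2 fused to the green fluorescent protein meGFP. No empty plasmid is named for the control, so the effects of plasmid DNA, of the fusion protein and of MORC2 cannot be told apart. Whether transfected cells were separated from the others before the assay is not given in the sources used here. The labels do not say that replicates were separate cultures, so p-values measure the spread between these libraries. The main test pooled that spread over all promoters by their abundance. The gap between a gene's own replicates therefore entered neither its p-value nor its interval.

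Heterochromatin is compact chromatin marked by methylation of histone H3 on lysine 9 and, in many places, of DNA. The HUSH complex reads that mark and recruits the methyltransferase SETDB1 and the ATPase MORC2, HP1 proteins bind the mark and hold it in place, and UHRF1 and DNMT1 copy DNA methylation after replication. KRAB zinc finger proteins reach the same enzymes through the corepressor TRIM28.

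Libraries held from 3734519 to 10255182 promoter counts. Mitochondrial promoters took a large and unequal part of them, with a ratio of mitochondrial to nuclear counts of 1.08 and 1.25 for control, whereas overexpression gave 2.95 and 2.81. The median count of the 40 genes was 236 and 181.5 for control but 84 and 47 for overexpression, and its replicate 2 therefore gave the least precise values. Among promoters of genes used in HEK293T cells, VIM and CDH2 lay at percentiles 98.3 and 94.9 of control accessibility, while the other 5 of that list lay between 41.8 and 69.5. Promoters that define other cell types were mostly lower, with PTPRC at percentile 8.21 and ALB at 4.03. The lists overlapped, since the highest of these 8, GFAP at 45.8, lay above PAX2 of the HEK293T list at 41.8. Of the 7 HEK293T genes 3 lay above the median promoter, and of the 8 others 0.

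The sequences below show the DNA in front of the genes on which the values turn: MORC2 itself, the pair of genes with the smallest p-values, and the genes with the highest and the lowest control accessibility. Each is the 250 bases before a RefSeq start (GRCh38.p14), read 5′ to 3′ on the strand of the gene, with every CpG in capitals, because CpG is the site that DNMT1 methylates and that UHRF1 and the MBD proteins read. The counts themselves were made by the authors on another assembly, CHM13, in windows that the methods place around each start site over 2 kb.
MORC2, chr22:30968775-30969024, minus strand: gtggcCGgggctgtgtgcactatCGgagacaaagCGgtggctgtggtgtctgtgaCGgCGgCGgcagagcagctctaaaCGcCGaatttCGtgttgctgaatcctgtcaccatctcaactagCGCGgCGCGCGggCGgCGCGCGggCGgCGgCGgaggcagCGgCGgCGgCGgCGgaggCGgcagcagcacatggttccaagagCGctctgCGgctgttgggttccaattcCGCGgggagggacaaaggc
SUV39H2, chr10:14878616-14878865, plus strand: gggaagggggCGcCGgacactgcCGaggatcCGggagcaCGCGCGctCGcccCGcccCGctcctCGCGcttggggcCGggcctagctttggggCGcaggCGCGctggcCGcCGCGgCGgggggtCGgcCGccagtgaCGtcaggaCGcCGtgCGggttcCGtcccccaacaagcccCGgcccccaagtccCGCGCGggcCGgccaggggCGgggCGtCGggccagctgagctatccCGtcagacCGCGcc
UHRF1, the most upstream of 3 listed starts, chr19:4909251-4909500, plus strand: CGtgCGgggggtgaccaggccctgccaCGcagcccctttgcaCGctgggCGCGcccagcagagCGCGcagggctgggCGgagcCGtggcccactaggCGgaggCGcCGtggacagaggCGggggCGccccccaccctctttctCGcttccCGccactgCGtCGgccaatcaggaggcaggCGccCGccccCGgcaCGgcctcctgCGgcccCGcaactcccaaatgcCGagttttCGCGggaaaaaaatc
KMT5C, chr19:55339626-55339875, plus strand: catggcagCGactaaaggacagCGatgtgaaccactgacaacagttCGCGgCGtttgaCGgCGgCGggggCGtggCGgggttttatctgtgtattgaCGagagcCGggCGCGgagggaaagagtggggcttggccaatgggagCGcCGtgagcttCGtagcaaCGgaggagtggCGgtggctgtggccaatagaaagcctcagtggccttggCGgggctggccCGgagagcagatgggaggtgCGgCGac
MORC1, chr3:109118135-109118384, minus strand: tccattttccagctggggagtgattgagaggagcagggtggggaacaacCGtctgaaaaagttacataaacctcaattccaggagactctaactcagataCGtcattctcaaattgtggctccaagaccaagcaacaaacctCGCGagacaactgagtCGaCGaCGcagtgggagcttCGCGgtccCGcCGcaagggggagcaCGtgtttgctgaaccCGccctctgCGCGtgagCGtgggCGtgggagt
The MORC2 stretch holds 31 CpGs, that of SUV39H2 38, that of UHRF1 28, that of KMT5C 23 and that of MORC1 17. MORC1, a germline gene whose promoter was the least accessible of the 40, thus has the fewest CpGs of the sequences shown. It has an observed to expected ratio of CpG of 0.885, the observed number set against that which its C and G content would give, so that it is not poor in CpG by that measure.

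RefSeq promoter sequences (250 bases before to 50 after a start) were listed for 35 of the 40 genes. ATF7IP2, TRIM28, DAXX, LRIF1 and ATRX are named only. A promoter was called CpG-rich here when at least 50% of its bases were G or C and the CpG ratio was at least 0.6. By that measure 33 of the 35 genes had at least 1 CpG-rich start, against 62.0% of the 19554 genes of the count table with a sequence. The exceptions were LBR, the lamin B receptor, with 38.3% G or C, and DNMT3B, a de novo DNA methyltransferase, with a CpG ratio of 0.118. The DNMT3B value is that of its 1 listed start, and the RefSeq gene record begins over 1 kb from it. It may therefore not describe the promoter that was counted. The gene record of PAK1 likewise begins over 1 kb from its 1 listed start. The GC box (GGGCGG, either strand) was in the sequence of 26 of the 35 genes, against 58.5% of all genes, and the CCAAT box (CCAAT) in 16, against 41.1%. The E2F-type letters TTCCCGC were found at CDCA7, HELLS, MORC4, SIRT6 and UHRF1 (5 of 35, against 9.51% of all genes). The letters TGACGTCA, the cyclic AMP response element, were found at SUV39H2 alone (1 of 35, against 2.76%). Genes with several listed starts had more sequence searched, and these matches are a description of letters.

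In control cells the promoters of the silencing machinery were for the most part accessible. Of the 40, 36 lay above the median promoter of the count table, and the median percentile was 68.7. The same held for 13 of 14 erasers, 18 of 22 further readers, writers and partners, and 14 of 14 chaperone and lamina genes. Their median percentiles were 77.6, 72.0 and 87.1, and these lists are described below. All promoter windows are taken to have the same length, so levels can be set side by side between genes, and they are given as CPM, the counts relative to a library total that was scaled by TMM. The highest was KMT5C, which writes the di- and trimethyl mark on lysine 20 of histone H4, with 69.4 and 70.5 CPM in the control libraries (percentile 99.5). SETDB2, a SET domain protein related to SETDB1, followed with 53.2 and 61.6 CPM, and CBX5, the HP1 alpha protein, with 44.0 and 50.3 CPM. The control replicates of SETDB2 and CBX5 did not overlap, nor did either overlap KMT5C. SUV39H2, one of the pair of enzymes that trimethylate lysine 9 in constitutive heterochromatin, had 41.5 and 42.0 CPM. At the other end were WIZ with 6.98 and 6.82 CPM, ATF7IP with 7.98 and 5.86 CPM, UHRF1 with 1.71 and 1.92 CPM, and MORC1 with 1.28 and 0.577 CPM. WIZ, a zinc finger partner of the EHMT enzymes, and ATF7IP, the partner that stabilises SETDB1, overlapped each other and lay at the median of all promoters. ATF7IP has 6 listed starts and WIZ 3, and which of them was counted is not given in the sources used here.

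**Figure D1:**
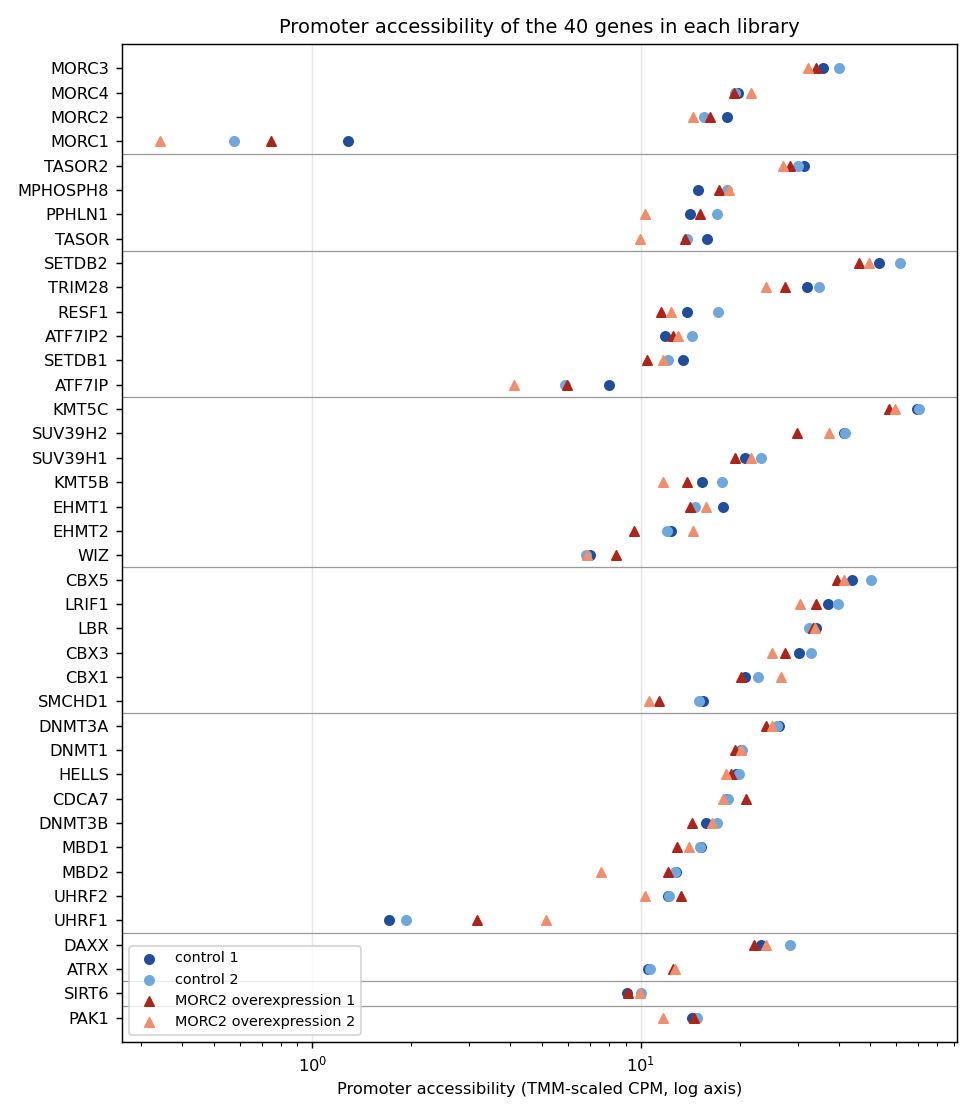
Promoter accessibility of the 40 genes (TMM-scaled CPM, log axis) in each of the 4 libraries, with circles for control, triangles for MORC2 overexpression and lines between role groups ordered as in the text. Most genes sit between 10 and 70 CPM with the groups close together, UHRF1 and MORC1 sit far to the left, and UHRF1 alone of these low promoters has both triangles to the right of both circles.

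No promoter of the 39 tested passed the threshold after MORC2 overexpression. By the quasi-likelihood test of edgeR with Benjamini-Hochberg adjustment over all 23407 promoters tested, 0 of 39 had an adjusted p under 0.05, against 2.47% of all promoters (577 in number: 272 higher, or 1.16%, and 305 lower, or 1.3%). Upper-quartile scaling also gave 0 of 39, and 384 of its 493 changed promoters were higher. Without adjustment, 10 of the 39 had a p under 0.05, against 17.2% of all promoters. Of these 10, 9 were lower in overexpression, against 8.57% of all promoters, and UHRF1 was higher, against 8.66%. DESeq2 without independent filtering gave 0 adjusted and 5 unadjusted, and limma-voom 0 and 7. The share of all promoters by unadjusted p was not counted for these tests. The smallest adjusted p was that of SUV39H2 at 0.0708 (edgeR), followed by UHRF1 at 0.0759, and these were the members under 0.1, where 4.98% of all promoters lay.

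Most of the members nevertheless lay slightly on the low side. Log2 fold changes (overexpression over control) were below 0 for 30 of the 39, against 48.6% of all promoters, and their median was −0.14, against 0.0099 for all promoters tested. The groups did not overlap, with overexpression the lower, for 18 members, against 24.9% of all promoters, and above them for 2 (ATRX and UHRF1), against 24.8%. Exact permutation of 2 libraries against 2 cannot give a p below 0.333. These members were mostly abundant promoters, and abundance moved with the fold change across the whole table: with all tested promoters divided into 4 equal classes from the lowest to the highest abundance, the median log2 fold change was 0.39, 0.13, −0.05 and −0.13. The 39 were spread over these classes as 1, 5, 21 and 12, with medians of 1.10, −0.0059, −0.11 and −0.22. Below 0 lay 0 of 1, 3 of 5, 16 of 21 and 11 of 12, against 21.9%, 32.9%, 60.6% and 79.2% of all promoters in these classes. In the highest class 6 of the 12 had an unadjusted p under 0.05 and lay lower, against 23.2% of its promoters. In the next class this held for 3 of 21, against 8.41%, and in the lower classes for 0 of 5, against 2.05%, and 0 of 1, against 0.667%. Values under a scaling that removes the abundance trend are given below. With mitochondrial promoters left out and TMM kept, 0 members passed the threshold and 11 had an unadjusted p under 0.05. The members' median was then −0.15, against 0.0036 for all promoters. The part of the unequal mitochondrial share in these values was not tested.

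**Figure D2:**
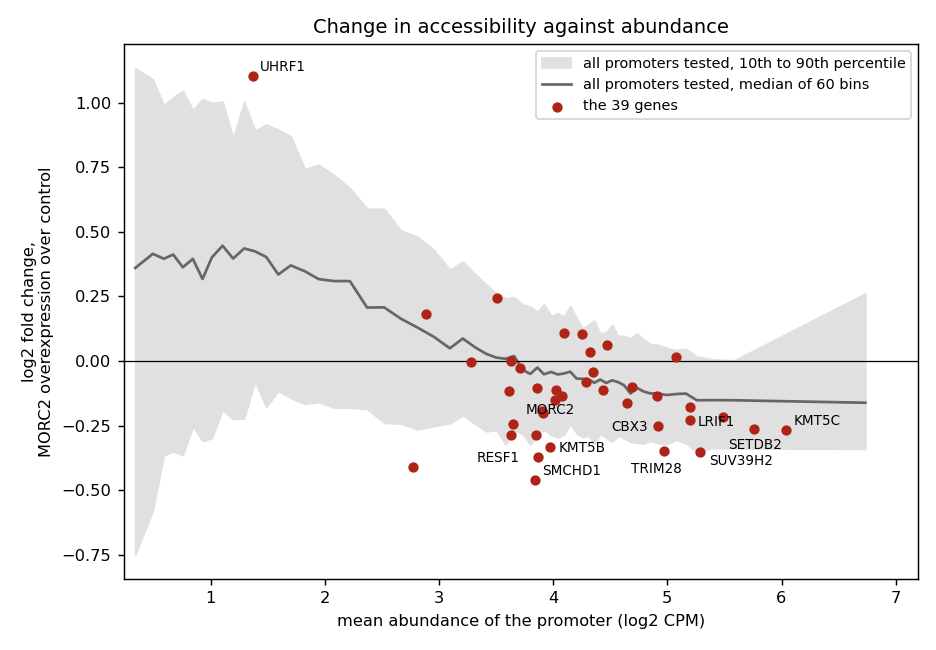
Log2 fold change against mean abundance (log2 CPM) for the 39 genes (points) over the median (line) and the 10th to 90th percentile (band) of all tested promoters in 60 bins. The line falls from left to right, 29 of the 39 points lie below it, and UHRF1 lies above the band while 6 points lie below it (ATF7IP, KMT5B, RESF1, SMCHD1, SUV39H2 and TRIM28).

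The MORC family, GHKL-type ATPases that compact chromatin, had 3 members in the test and 0 past the threshold. MORC2 drew 257 and 162 fragments under control conditions, and overexpression gave 87 and 42, which is 18.3 and 15.6 against 16.2 and 14.4 CPM. The groups overlapped, and the log2 fold change of −0.14 had a 95% interval from −0.44 to 0.17 (edgeR adjusted p 0.695). This promoter window is shared: TUG1, a long noncoding RNA gene next to MORC2, had 256, 162, 86 and 42 counts in the same libraries, so the fragments of the genes cannot be told apart. MORC3, a nuclear body ATPase, had 35.8 and 40.2 CPM in control and 34.1 and 32.2 in overexpression, a log2 fold change of −0.18 (interval from −0.41 to 0.050). MORC4 had 19.8 and 19.3 CPM in control and 19.2 and 21.6 in overexpression, and its groups overlapped. MORC1 drew 18 and 6 fragments without and 4 and 1 with MORC2 overexpression, and was left out by the filter.

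The HUSH complex, of which TASOR is the scaffold, MPHOSPH8 the chromodomain reader and PPHLN1 (periphilin) the RNA-binding subunit, had 0 of 4 members with a p under 0.05, adjusted or not. TASOR had 15.9 and 13.8 CPM in control and 13.6 and 9.94 in overexpression, a log2 fold change of −0.29 (interval from −0.62 to 0.046, edgeR adjusted p 0.375). The overexpression libraries lay below the control libraries, but by less than they differed from each other. TASOR2, the paralogue of TASOR, had 31.3 and 30.1 CPM in control and 28.5 and 27.1 in overexpression, the highest level of the group and a log2 fold change of −0.14. MPHOSPH8 was the single HUSH gene with a positive value, with 15.0 and 18.4 CPM in control and 17.3 and 18.5 in overexpression (log2 fold change 0.11, interval from −0.19 to 0.41). PPHLN1 had 14.1 and 17.0 CPM in control and 15.1 and 10.3 in overexpression, and it shares its window with the splicing factor gene ZCRB1, whose 198, 175, 81 and 30 counts stood beside 198, 177, 81 and 30.

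SETDB1 and its partners had the lowest median of the larger groups (−0.31). All 6 log2 fold changes were below 0, against 48.6% of all promoters. That held for 32.9%, 60.6% and 79.2% of promoters in the abundance classes of these genes, from lower to higher. Of the 6, 3 lay lower with an unadjusted p under 0.05, against 8.57% of all promoters. That share was 23.2% in the highest abundance class and 8.41% in the next. TRIM28, the corepressor that brings SETDB1 to KRAB zinc finger proteins, had 32.1 and 34.8 CPM in control and 27.4 and 24.0 in overexpression. These groups did not overlap, and the log2 fold change was −0.35 (interval from −0.60 to −0.10, edgeR p 0.00531, adjusted p 0.103). RESF1, a retroelement silencing factor that binds SETDB1, had 13.8 and 17.2 CPM in control and 11.6 and 12.3 in overexpression, a log2 fold change of −0.37 (interval from −0.71 to −0.036, adjusted p 0.230), and of −0.23 without control replicate 2. SETDB2 had 46.2 and 49.7 CPM in overexpression, below both control libraries, and a log2 fold change of −0.26 (interval from −0.47 to −0.058, adjusted p 0.15), or −0.16 without control replicate 2. Its window holds the same counts as the readthrough gene SETDB2-PHF11 (747, 641, 248 and 145) and nearly the same as the neighbouring CAB39L (747, 643, 248 and 145). SETDB1 itself, the methyltransferase recruited by HUSH, had 13.5 and 12.1 CPM in control and 10.4 and 11.7 in overexpression (log2 fold change −0.24, interval from −0.60 to 0.11). ATF7IP had 5.96 and 4.11 CPM in overexpression and the largest negative value of the group at −0.41, yet its interval reached from −0.91 to 0.084 at 32 and 12 counts. ATF7IP2, its paralogue, had a log2 fold change of −0.03, which was 0.05 under upper-quartile scaling.

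Of the 7 enzymes and cofactors of lysine 9 and lysine 20 methylation, 0 passed the threshold. An unadjusted p under 0.05 was found for 3, all lower, against 8.57% of all promoters and 23.2% of the highest abundance class. SUV39H2, whose upstream sequence is shown above, drew 583 and 437 fragments without and 160 and 109 with MORC2 overexpression. Its CPM went from 41.5 and 42.0 to 29.8 and 37.4, a log2 fold change of −0.35 (interval from −0.58 to −0.12, edgeR p 0.00244, adjusted p 0.0708). The control libraries were close together and the overexpression libraries apart from each other, and when each replicate was left out in turn the value ranged from −0.49 to −0.17, the latter without overexpression replicate 1. KMT5C had 57.0 and 59.6 CPM in overexpression, below both control libraries, with a log2 fold change of −0.27 (interval from −0.46 to −0.073, adjusted p 0.117). KMT5B, the other enzyme for lysine 20, had 15.4 and 17.7 CPM in control and 13.8 and 11.7 in overexpression (log2 fold change −0.33, interval from −0.65 to −0.011, adjusted p 0.269). Its value was −0.50 without overexpression replicate 1 and −0.24 without control replicate 2. SUV39H1, the paralogue of SUV39H2, had 20.7 and 23.3 CPM in control and 19.4 and 21.6 in overexpression, with overlapping groups and a log2 fold change of −0.11. EHMT1 and EHMT2, which add the mono- and dimethyl mark to lysine 9 in euchromatin, had log2 fold changes of −0.15 and −0.12 with intervals across 0. EHMT1 shares its window with ARRDC1-AS1 and EHMT2 with the complement gene C2, each with counts within 5% in all 4 libraries. WIZ had the largest positive value of the group, with 8.39 and 6.85 CPM in overexpression and a log2 fold change of 0.18 (interval from −0.27 to 0.63).

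HP1 proteins and other readers were the most accessible group, with a median control level of 32.5 CPM. SMCHD1, a noncanonical SMC protein that maintains the silent X chromosome, had the largest negative value of all 39. It had 15.5 and 15.1 CPM in control and 11.4 and 10.6 in overexpression, groups that did not overlap. Its log2 fold change was −0.46 (interval from −0.80 to −0.12, edgeR p 0.00780, adjusted p 0.124). CBX3, the HP1 gamma protein, had 30.3 and 33.0 CPM in control and 27.4 and 25.0 in overexpression, a log2 fold change of −0.25 (adjusted p 0.283). It shares its window with the RNA-binding protein gene HNRNPA2B1 (427, 344, 147 and 74 counts beside 426, 343, 147 and 73). CBX5 likewise lay beside HNRNPA1 (621, 520, 209 and 119 counts beside 618, 523, 213 and 121), and its log2 fold change of −0.22 had an interval that reached 0 (adjusted p 0.290). LRIF1, an HP1-binding partner of SMCHD1, had 37.3 and 39.8 CPM in control and 34.1 and 30.5 in overexpression, a log2 fold change of −0.23 (adjusted p 0.290). CBX1, the HP1 beta protein, and LBR had overlapping groups, with log2 fold changes of 0.06 and 0.01. The HP1 genes therefore had 1 small positive and 2 negative values, and the differences between them were not tested.

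**Figure D3:**
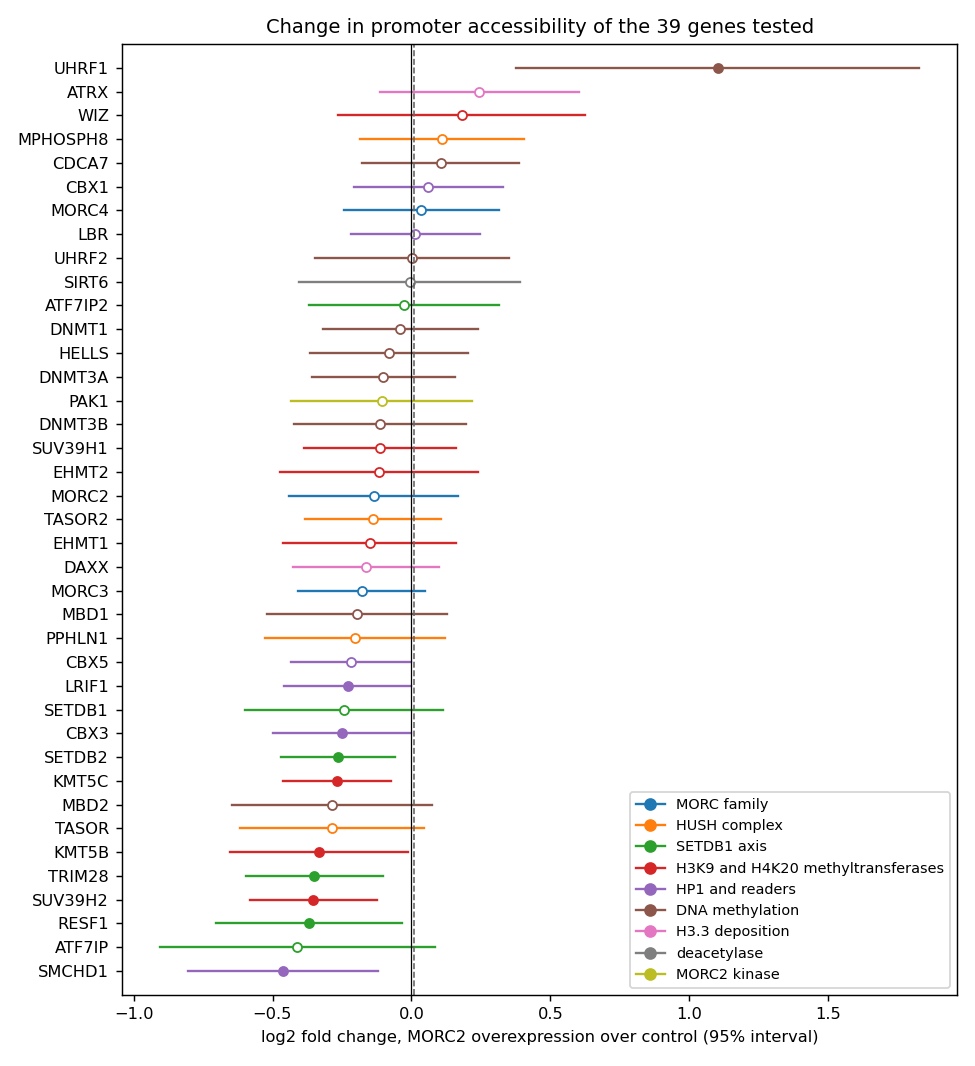
Log2 fold change of each of the 39 tested promoters with its 95% interval from the edgeR fit, coloured by role, with filled points for an unadjusted p under 0.05 and a dashed line at the median of all tested promoters. Filled points below 0 run from SMCHD1 at −0.46 to LRIF1 at −0.23, with the unfilled ATF7IP, TASOR, MBD2 and SETDB1 among them. UHRF1, also filled, stands alone at the top with the widest interval.

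The genes of DNA methylation had 9 members in the test, and UHRF1 was the 1 with an unadjusted p under 0.05, against 17.2% of all promoters. UHRF1, the ubiquitin ligase that recognises hemimethylated DNA, drew 24 and 20 fragments without and 17 and 15 with MORC2 overexpression. Relative to library size this was 1.71 and 1.92 CPM against 3.17 and 5.14 CPM, and the groups did not overlap. Its log2 fold change of 1.10 was the largest of all members and had the widest interval, from 0.38 to 1.83 (edgeR p 0.00276, adjusted p 0.0759). The low control level, at percentile 31.0, stands beside 3 CpG-rich starts in the sequence table, with 28, 32 and 41 CpGs before them, and the RefSeq gene record begins over 1 kb from all of them. Which start the counted window was set at is not given in the sources used here. The abundance class of UHRF1 had a median log2 fold change of 0.39.

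The methyltransferases themselves had smaller values. DNMT1, which maintains methylation, had 20.2 and 20.4 CPM in control and 19.4 and 20.2 in overexpression, a log2 fold change of −0.04 (interval from −0.32 to 0.24). DNMT3A had 26.4 and 25.95 CPM in control and 24.0 and 25.0 in overexpression, and DNMT3B 15.7 and 17.1 against 14.4 and 16.4, with log2 fold changes of −0.10 and −0.11. The lowest and the highest end of the intervals of these enzymes were −0.42 and 0.24. MBD2, a reader of methylated CpG, had the most negative value of the group, −0.29, with 12.8 and 12.7 CPM in control and 12.1 and 7.54 in overexpression. The lower level rested on overexpression replicate 2, which had 22 counts. MBD1 (log2 fold change −0.20) and the remodeller HELLS (−0.08) also had groups that did not overlap, whereas the HELLS activator CDCA7 (0.11) and UHRF2 (0.0016), the paralogue of UHRF1, did not separate.

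ATRX and DAXX, which deposit the histone variant H3.3 in heterochromatin, pointed to opposite sides. ATRX had 10.5 and 10.7 CPM in control and 12.5 and 12.7 in overexpression, tight and separate groups with a log2 fold change of 0.24 (interval from −0.11 to 0.60, adjusted p 0.505). DAXX had 23.3 and 28.5 CPM in control and 22.2 and 24.0 in overexpression, which overlapped (log2 fold change −0.16). SIRT6, a lysine 9 deacetylase, had 9.05 and 10.0 CPM in control and 9.13 and 9.94 in overexpression, a log2 fold change of −0.0059. PAK1, the kinase that phosphorylates MORC2, had 14.3 and 14.8 CPM in control and 14.5 and 11.7 in overexpression (log2 fold change −0.11, interval from −0.43 to 0.22).

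Genes that oppose or assist this machinery were read from the same fit. Of 14 erasers, the lysine 9 demethylases and the TET dioxygenases, 0 passed the threshold and 1 lay lower with an unadjusted p under 0.05, against 8.57% of all promoters, with a median log2 fold change of −0.06. Of 22 further readers, writers and partners, 21 were tested, 0 passed the threshold, 2 lay lower with an unadjusted p under 0.05 and the median was −0.14. Of 14 genes for histone chaperones and the nuclear lamina, 1 fell past the threshold, against 1.3% of all promoters, 4 lay lower with an unadjusted p under 0.05 (EMD, LMNB1, UBN1 and ASF1B) and the median was −0.11. The share of promoters that lay lower by the unadjusted p was 23.2% in the highest abundance class, 8.41% in the next and 8.57% over all. The gene past the threshold was EMD, which encodes the lamina protein emerin. EMD had 78.7 and 77.9 CPM in control and 59.6 and 63.0 in overexpression, a log2 fold change of −0.36 (SE 0.0980, edgeR adjusted p 0.0218). Of the 7 genes used in HEK293T cells 0 passed the threshold, and 3 had an unadjusted p under 0.05 with overexpression the higher (KRT8, KRT18 and PAX2, at percentiles from 41.8 to 49.0), against 8.66% of all promoters. Of the markers of other cell types, 5 of 5 tested had positive values. In the lower abundance classes 21.9% and 32.9% of all promoters lay below 0, with class medians of 0.39 and 0.13. The summed level of all 8 went from 18.7 and 19.4 to 26.8 and 28.8 CPM. Of these, MYH7, a muscle myosin gene at percentile 34.5 in control, passed the threshold (log2 fold change 1.25, adjusted p 0.0139). PTPRC, which defines blood cells, had 7, 5, 3 and 1 counts. The part of these promoters in the members' values was not tested.

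Upper-quartile scaling and library totals moved the members by nearly equal steps, from 0.080 to 0.082 and from −0.81 to −0.78 relative to TMM on the log2 scale. Loess scaling moved 30 of them up and 9 down, by −0.36 to 0.18. The sign changed for 4 members under upper-quartile scaling (ATF7IP2, DNMT1, HELLS and SIRT6) and for 2 under loess scaling (DNMT1 and UHRF2), all of them close to 0 under TMM. Under upper-quartile scaling their median log2 fold change was −0.06 with 0.090 for all promoters, under loess scaling on abundance −0.07 with −0.0070, and under library totals −0.93 with −0.78. The members' median lay below that of all promoters in each of these, with 31 of the 39 below it under TMM, upper-quartile scaling and library totals, and 28 under loess scaling. With loess scaling 4 members had an unadjusted p under 0.05, with the share of all promoters not counted. These were ATF7IP (log2 fold change −0.62), RESF1 (−0.35), SMCHD1 (−0.45) and UHRF1 (0.74), of which ATF7IP was not among the 10 under TMM. The other 7 of those 10 came closer to 0: KMT5C was at −0.09, SETDB2 at −0.10, LRIF1 at −0.10, CBX3 at −0.14, SUV39H2 at −0.22, TRIM28 at −0.24 and KMT5B at −0.30, with adjusted p-values (edgeR) from 0.469 for TRIM28 to 0.802 for KMT5C. Library totals, which are mostly mitochondrial, put 38 of the 39 past the threshold on the low side, and UHRF1 at 0.32 with an adjusted p of 0.468. In that scaling 16319 promoters of the table passed the threshold.

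**Figure D4:**
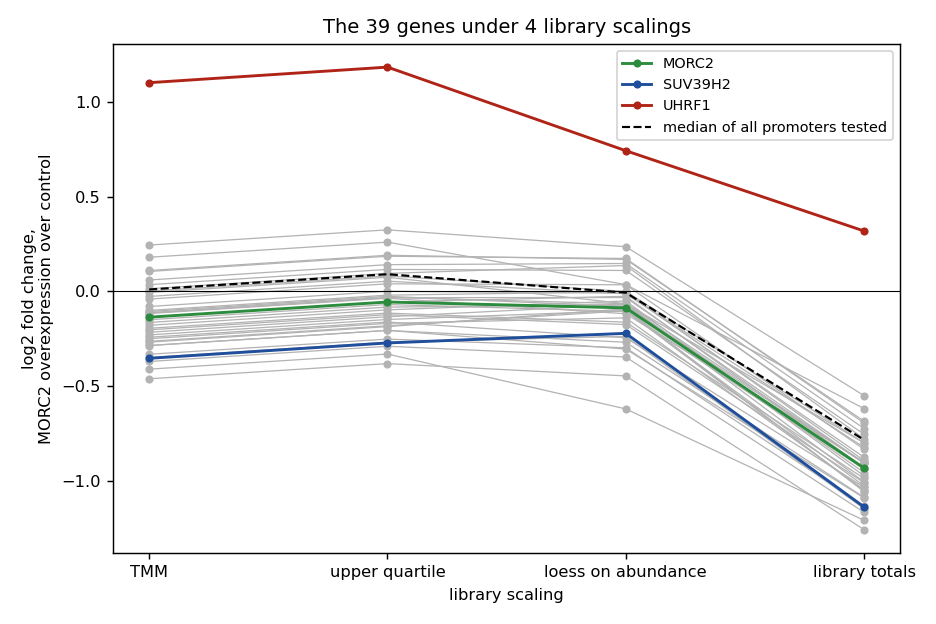
Log2 fold change of the 39 genes (1 line each) under 4 library scalings, with MORC2, SUV39H2 and UHRF1 coloured and the median of all tested promoters dashed. From TMM to upper-quartile scaling the lines run parallel, under loess scaling they cross, with UHRF1 at 0.74, and under library totals all lie lower than under TMM by nearly the same step, as the dashed line does, with UHRF1 on top throughout.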

How the data were processed

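ATAC-seq was analysed for 4 libraries of HEK293T cells, 2 control and 2 MORC2 overexpression, grouped by their labels. According to the methods, the authors aligned reads to CHM13 with Bowtie2, kept proper pairs with a mapping quality of at least 30 and discarded duplicates (Picard). Raw counts were deposited per promoter, a 2 kb window around a start site, and which function made the table is not given in the sources used here. The authors' peak lists were not used here, as no CHM13 annotation was at hand. Windows of close genes can share fragments, and neighbours with counts within 5% in all libraries are named.

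Symbols came from RefSeq (GRCh38.p14), which named 28763 of 28775 promoters. Promoters were filtered with filterByExpr, scaled by TMM and compared by edgeR 4.0.16 (quasi-likelihood, legacy form, two-sided, without covariates; R 4.3.3), and p-values were adjusted by Benjamini-Hochberg over all 23407 promoters and a threshold of 0.05. Intervals are 95% intervals of that fit, whose variance came from the trend over all promoters (infinite prior degrees of freedom). The members, lists and tests were chosen with earlier results of these data known. Values were given by library for MORC2, members with an unadjusted p under 0.05, and the extremes of each role group in control level and change. Some further members are given by library as well, chosen after their values were seen, as were the list genes named. Sequences are shown for MORC2, the smallest p-values, and the highest and lowest control level. Alternatives used DESeq2 1.42.0 and limma 3.58.1.

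The replicates of each group differed by more than sampling noise (chi-square per degree of freedom 1.26 in control and 1.14 in overexpression) and were kept apart.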

Additional observations from a re-analysis of the deposited data

How the results depend on the processing

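No member passed the threshold under any of the alternatives run except library totals, where 38 did and MORC2 had a log2 fold change of −0.93, and an adjusted p threshold of 0.1, where 2 did. Of the 11 members followed by name, none changed direction under an alternative that tested it. The share of all promoters with an unadjusted p under 0.05 was counted for the main test alone, at 17.2%. The count of 10 members with an unadjusted p under 0.05 became 38 when library totals were used, 5 by upper quartile, 4 by loess (also without mitochondrial promoters), 4 where a mean of 50 counts was required (fewer promoters tested) and 5 by DESeq2. It ranged from 5 to 12 when each replicate was left out, and was 5 without overexpression replicate 2, with UHRF1 no longer among them. The 20 members whose groups did not overlap stood against 49.7% of all promoters under TMM. That count became 38 with library totals, and from 28 to 32 with a replicate left out, since fewer libraries separate more easily. The share of all promoters was not counted under these alternatives.

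The members' median of −0.14 moved to −0.93 by library totals, −0.056 by upper quartile, −0.070 by loess with or without mitochondrial promoters, −0.17 unfiltered and −0.073 where a mean of 50 counts was required. It ranged from −0.16 to −0.12 with a replicate left out, and the MORC2 value from −0.26 (without overexpression replicate 1) to −0.0017 (without control replicate 1), with −0.24 without control replicate 2 and −0.084 without overexpression replicate 2.

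The 577 changed promoters became 16319 with library totals (51 higher), 79 with loess scaling (41 higher), 44 with loess scaling without mitochondrial promoters, 368 where each library needed 10 counts, 218 where the mean needed 50, 52 by DESeq2 (41 higher), 1166 at an adjusted p of 0.1, and from 101 to 206 with a replicate left out. Of 493 with upper-quartile scaling, 384 were higher. Except where stated, the cause was not tested.

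Replicate numbers are shared between the groups, but the libraries that share a number deviated together only weakly (correlation 0.050 over 14976 promoters, 2 pairs), and the number was not used as a pairing. With the replicate block 0 members and 488 promoters passed the threshold, 8 members had an unadjusted p under 0.05, and MORC2 was at −0.15.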
